A study of Homo sapiens with 3 samples.

Results

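Olfactory receptors are G protein-coupled receptors that detect odorants, and chromosome 11 carries more of their genes than any other human chromosome. The genes described here are those annotated as protein-coding on chromosome 11 in GENCODE release 44 whose symbols follow the naming of the olfactory receptor family (OR, a family number, a subfamily letter and a member number). The annotation held 178 such genes and 176 of them had a row in the deposited counts, out of 58051 genes in the files and 19629 protein-coding genes with counts. OR8B2 and OR8B3 were not in the files under their annotated identifiers and were not analysed here. The symbols OR51C1P, OR56B2P, OR5D3P, OR5AK3P, OR8G2P and OR8G3P end in the P of a pseudogene but are annotated as protein-coding, and they were kept. The samples were 3 replicates of H9, an established human embryonic stem cell line of wild-type genotype, grown on vitronectin without any treatment. Total RNA depleted of ribosomal RNA was sequenced, and the study used the levels to sort genes into expression classes. There is 1 condition, so the comparisons are between sets of genes in the same libraries. The labels do not say whether the replicates were separate cultures, and their spread may be technical.

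In the nose, each mature olfactory sensory neuron transcribes 1 allele of 1 receptor gene while the others stay packed in heterochromatin. The receptor couples to the olfactory G protein, which activates an adenylyl cyclase and opens a cyclic nucleotide-gated channel. Receptor genes usually have their coding sequence in 1 exon and lie in clusters with many pseudogenes. Class I receptors (families 51 to 56) resemble those of fish, and all other families form class II. A few receptors, among them OR51E2, are known to be transcribed in tissues outside the nose.

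Nearly all of these receptor genes were without reads in H9 cells. In the 3 libraries, with 10390984, 12024802 and 8655155 reads on genes, the 176 receptor genes together held 22, 29 and 24 reads. This is 2.12, 2.41 and 2.77 CPM (the count scaled to all reads on genes in the library), with exact Poisson 95% intervals of 1.33 to 3.21, 1.62 to 3.46 and 1.78 to 4.13. The mean was 2.43 ± 0.328 CPM (SD, n = 3), and the intervals of the 3 libraries overlapped. The intervals take in the error of counting alone, as copies made by PCR cannot be separated here. No read was counted in any library on 154 of the 176 genes, which is 87.5% of them. At least 1 read was counted on 22 genes, or 12.5%, against 86.5% of all protein-coding genes. A read in every replicate was found for 6 receptor genes, or 3.41%, against 79.1% of all protein-coding genes. All 22 were at or above a mean of 0.01 TPM (a level scaled for exon length and library total), and so were 86.4% of all protein-coding genes. This is the threshold below which the study calls a gene nonexpressed. The study applied it to levels from Cufflinks and not to TPM computed from these counts, so its classes may differ. On a receptor gene, 1 read was worth a median of 0.359, 0.309 and 0.421 TPM in replicates 1, 2 and 3, and never less than 0.0350 TPM, so that for this family the threshold separates genes with a read from genes without one. No receptor gene reached a mean of 1 TPM, and none passed the filter on low counts of edgeR, which kept 15997 genes.

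Markers of the stem cell state were high. POU5F1, NANOG, SOX2 and LIN28A, which maintain pluripotency, had 799 ± 24.9, 275 ± 24.7, 397 ± 42.7 and 2576 ± 64.7 TPM (SD, n = 3). Of markers of other lineages, TBXT (mesoderm), SOX17 (endoderm) and PAX6 (neural) had means of 1.75, 1.68 and 1.74 TPM, and the embryonic and fetal globin genes HBE1 and HBG1 had no read. HBG2, the other fetal globin gene, had 0, 6 and 2 reads. The exon length shared with other genes is 14.3% for TBXT, 26.3% for PAX6, 90.0% for HBE1, 14.9% for HBG1 and 55.6% for HBG2. Its part in these counts was not tested.

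The 6 genes with a read in every replicate held 50 of the 75 receptor reads, or 66.7%. OR52A1 (ENSG00000182070, chromosome 11, 5146824 to 5154757, minus strand), a class I receptor, had 2, 8 and 4 reads in replicates 1, 2 and 3, the highest total at 14. OR51E2 (ENSG00000167332, 4680171 to 4697854, minus strand), a receptor for short-chain fatty acids that is best known from the prostate, had 3, 7 and 2 reads. Both were highest in replicate 2, which was also the deepest library. OR51B5 (ENSG00000167355, minus strand) had 3, 2 and 2 reads over an annotated span of 5303444 to 5505652, in which long annotated transcripts of the globin genes HBE1 and HBG2 also lie in part. OR52W1 (ENSG00000175485, 6199224 to 6200186, plus strand) had 2, 3 and 2 reads. OR56B4 (ENSG00000180919, 6107684 to 6108835, plus strand) had 2, 1 and 2 reads, and OR2AG2 (ENSG00000188124, 6765626 to 6771976, minus strand), the only class II gene among the 6, also had 2, 1 and 2 reads. The coding sequence of each lies within the annotated exons, and the counts do not show where in a gene the reads fell.

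Per length of annotated exons, the order was different. OR52W1, whose 963 bp of exons are nearly all coding, had 0.798, 1.03 and 0.936 TPM, with a mean of 0.921 ± 0.117 TPM (SD, n = 3), the highest of the family. OR56B4 followed at 0.579 ± 0.259 TPM and OR51E2 at 0.501 ± 0.259 TPM, and these levels differed by less than their SD. OR52A1 had 0.281 ± 0.152 TPM over 6178 bp of exons, OR51B5 0.228 ± 0.0620 TPM and OR2AG2 0.158 ± 0.0707 TPM. The TPM of OR52W1 was above those of the other 5 genes in every replicate. This order rests on the annotated exons, which may differ from those counted. The coding length is 936 bp for OR52A1 and 960 bp for both OR51E2 and OR52W1. Over coding length alone, OR52A1 with 14 reads and OR51E2 with 12 would stand above OR52W1 with 7. The exons of OR56B4 share 38.6% of their length with an lncRNA gene on the opposite strand, ENSG00000254444, which had 1, 3 and 4 reads itself. Since the use of strand in the counting is not given in the sources used here, reads of these genes cannot be told apart. Of 50-base windows in the transcript of OR56B4, 42.2% also occur in those of other genes on either strand, most often of this same lncRNA gene. OR51B5 shares 5.32% and OR51E2 6.91% of exon length with other genes, and OR52A1, OR52W1 and OR2AG2 share none.

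**Figure D1:**
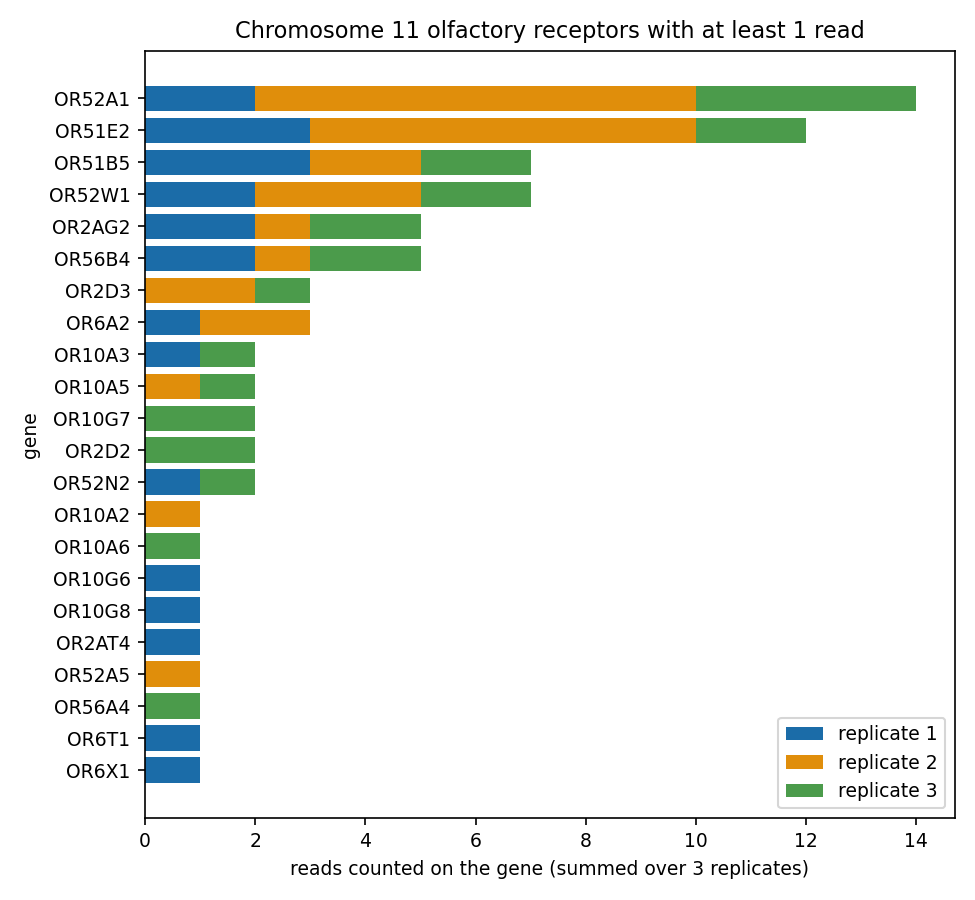
Reads on each of the 22 chromosome 11 olfactory receptor genes with at least 1 read, summed over the 3 H9 replicates (horizontal axis, reads) and colored by replicate. The 6 genes with all 3 colors have between 5 and 14 reads, and the other 16 have at most 3.

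The other 16 genes had from 1 to 3 reads in all. Reads in 2 replicates were found for 5 genes with 12 reads together. OR6A2 had 1, 2 and 0 reads and OR2D3 0, 2 and 1. OR10A3 and OR52N2 had 1 read each in replicates 1 and 3, and OR10A5 had 1 each in replicates 2 and 3. The remaining 11 genes had reads in 1 replicate only. OR2D2 and OR10G7 had 2 reads in replicate 3, and OR6X1, OR6T1, OR10G6, OR10G8 and OR2AT4 had 1 read in replicate 1. OR52A5 and OR10A2 had 1 read in replicate 2, and OR10A6 and OR56A4 had 1 in replicate 3. A count of 0 was taken to allow an expected count of up to 3 reads. This limit is for genes at 0 and does not test genes with 1 to 3 observed reads. By library, 14, 11 and 14 receptor genes had a read in replicates 1, 2 and 3, and the deepest library, replicate 2, thus had the fewest. For the 154 genes without a read, 3 reads over the libraries would correspond to a median of 0.362 TPM, between 0.0405 and 0.419 TPM depending on exon length. This is the upper limit taken for a count of 0, whereas the levels given for genes with reads are observed values.

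Sequence in front of the genes is shown for the 2 genes with a read in every replicate that have an entry among the RefSeq promoter sequences used (GRCh38.p14), and for OR51E1, the silent neighbor of OR51E2. Each run is the 250 bases before the RefSeq start, written 5′ to 3′ on the strand of the gene. Capitals mark matches to the core bound by EBF factors (CCCNNGGG), to a homeodomain core (TAATTA) and to the TATA box (TATAAA), searched on both strands.
OR52W1, chr11:6198974-6199223, plus strand: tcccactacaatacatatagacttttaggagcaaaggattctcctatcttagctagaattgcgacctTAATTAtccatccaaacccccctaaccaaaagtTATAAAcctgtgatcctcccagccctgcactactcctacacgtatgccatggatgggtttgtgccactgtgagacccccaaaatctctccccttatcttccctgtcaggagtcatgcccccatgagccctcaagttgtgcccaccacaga
OR2AG2, chr11:6771977-6772226, minus strand: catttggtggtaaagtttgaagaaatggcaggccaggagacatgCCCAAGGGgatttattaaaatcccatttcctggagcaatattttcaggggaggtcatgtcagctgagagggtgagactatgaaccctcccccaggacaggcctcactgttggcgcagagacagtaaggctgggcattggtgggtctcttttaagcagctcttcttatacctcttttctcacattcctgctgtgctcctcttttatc
OR51E1, chr11:4643732-4643981, plus strand: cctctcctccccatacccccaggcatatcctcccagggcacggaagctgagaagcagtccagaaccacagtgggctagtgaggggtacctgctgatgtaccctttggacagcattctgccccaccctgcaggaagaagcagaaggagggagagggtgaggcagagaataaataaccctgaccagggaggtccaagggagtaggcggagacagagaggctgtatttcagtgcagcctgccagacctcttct

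The window of OR52W1 holds a TAATTA and a TATAAA, that of OR2AG2 a CCCNNGGG, and that of OR51E1 none of the 3. The window of OR51E1 begins 312 bp downstream of the start of the gene in GENCODE (4643420) and so lies within the annotated gene, as 11 of the windows do at least in part. An entry was found for 131 of the 176 genes, with 134 windows in all, since OR52I2, OR52N5 and OR56A1 have 2 starts each. TAATTA was present in 29 of these 134 windows, or 21.6%, against 4.35% of 35116 windows of all genes, and TATAAA in 44, or 32.8%, against 10.7%. CCCNNGGG was present in 10, or 7.46%, against 17.1%. The windows of receptor genes were also poor in G and C, with a median of 36.4% (quartiles 31.2% and 41.6%) against 58.0% (46.4% and 68.0%) for all genes, and had a median of 1 CpG against 11. The part of base composition in these shares was not tested. For 62 of the 134 windows, that of OR52W1 among them, the RefSeq start lies within 2 bp of a start codon, so that the window precedes the coding sequence and may not be a promoter. These are matches of letters and do not show binding.

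Along chromosome 11 the reads were unevenly placed. With a new stretch begun wherever neighboring start sites were more than 1 Mb apart, the 176 genes fell into 7 stretches, and 4 of these had no read. The first stretch (4367263 to 7941708), from OR52B4 to OR10A3, has 69 genes, and 16 of them held 68 of the 75 reads, or 90.7%. It contains all 57 class I genes and 12 class II genes. The last stretch (123753580 to 124582942) has 22 genes, of which 5 held 6 reads, and OR2AT4 stands alone at 75081753 to 75096876 with 1 read. Between them, the 84 genes of the other stretches, from 48216810 to 59713845, had 0 reads in all 3 libraries over 157 kb of exons, which allows up to 0.0191 reads per kb. The 92 genes outside it had 0.329 reads per kb. Each of the 84 is a class II gene. These boundaries were drawn after the values had been seen, and genes are not replicates, so no test was made.

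Other genes within the silent stretches differed in their activity. Among the 53 receptor genes between 54603069 and 56989843, mainly of families 4, 5 and 8, lie 21 genes that are no receptors, and 2 of these had 4 reads together. Among the 21 receptor genes between 58023881 and 59713845 lie 46 other genes, of which 29 had 12179 reads, including OSBP, an oxysterol-binding protein gene with 76.8 ± 3.77 TPM (SD, n = 3). All 21 receptor genes there were at 0, as were all 53 of the former stretch.

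**Figure D2:**
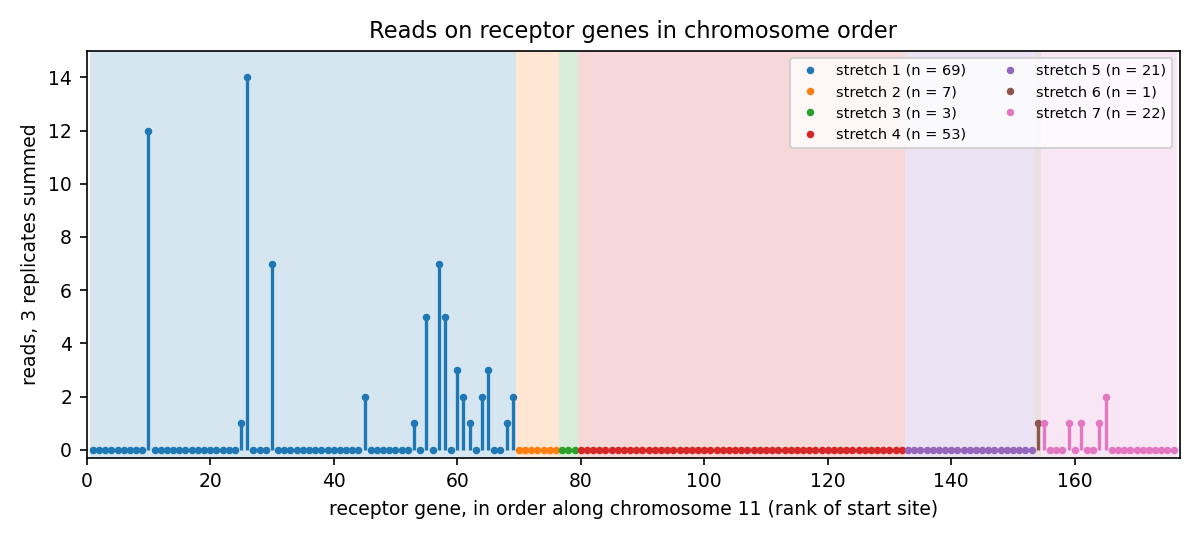
Reads summed over the 3 H9 replicates (vertical axis) for the 176 receptor genes in order of their start sites along chromosome 11 (horizontal axis, rank), with shading for stretches separated by more than 1 Mb. Reads fall in stretches 1, 6 and 7, and the 84 genes of stretches 2 to 5 are all at 0.

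Reads also differed between families. Of the 11 receptor families on the chromosome, 5 had no read: family 5 with 37 genes, family 4 with 26, family 8 with 23, family 9 with 5 and family 1 with 2, together 93 genes and 188 kb of exons. Of these, 79 lie in the stretches without a read and 14 elsewhere, and those stretches also hold 5 genes of families that had reads, OR6Q1, OR10AG1, OR10Q1, OR10W1 and OR10V1. Family 10 had reads on 7 of 16 genes, family 2 on 4 of 5 and family 6 on 3 of 5. Of class I, family 52 had reads on 4 of 27 genes, family 51 on 2 of 23 and family 56 on 2 of 7. By class, 8 of 57 class I genes (14.0%) and 14 of 119 class II genes (11.8%) had a read. Class I genes held 49 reads, or 0.377 per kb of exon, and class II genes 26 reads, or 0.102 per kb. Of the class I reads, 26 were on OR52A1 and OR51E2. All class I genes lie in the first stretch, which as a whole had 0.410 reads per kb. Its class II genes thus had a higher density than its class I genes. Within the first stretch, the class II genes had reads on 8 of 12, with 19 reads. Of these, 8 consecutive genes from OR2AG2 to OR2D3 (6765626 to 6921994) included 6 with reads, and OR2AG1 and OR10A4 were at 0.

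Many of the genes without reads lay far from any active gene. The distance from each receptor gene to the nearest protein-coding gene of at least 10 TPM had a median of 81.0 kb for the 22 genes with a read, and of 353 kb for the 154 without. Of 62 genes more than 500 kb away, none had a read, against 9 of 68 at 100 to 500 kb and 13 of 46 within 100 kb. These 46 include 12 genes at a distance of 0, and 12 of the other 34 had a read. OR52A5, at 458 kb, was the farthest with a read, and 64 silent genes lay beyond it. Distance and stretch overlap on this chromosome, and their parts were not tested. The silent stretches from 49952391 and 54603069 lay farthest from active genes, with median distances of 1811 and 1159 kb. Those from 48216810 and 58023881, also silent, had medians of 135 and 151 kb. The medians were 106 kb for the first stretch and 262 kb for the last, both with reads. Of 12 receptor genes within or partly within the span of an active gene, 1 had a read. TRIM5, an antiviral factor gene with 23.2 ± 2.06 TPM (SD, n = 3), spans 11 receptor genes, and OR52N2 had 2 reads while OR52P1, OR56B1, OR56B2P, OR52N1, OR52N4, OR52N5, OR52E4, OR52E5, OR52E6 and OR52E8 had none. OR10V1, of which 540 bp lie outside STX3, had no read either, although 36.0% of its exons coincide with those of STX3 (29.4 ± 1.53 TPM, SD, n = 3) on the opposite strand. OR56B1 was at 0 with 30.9% of its exons within those of TRIM22 on the same strand, which had 261, 348 and 242 reads.

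**Figure D3:**
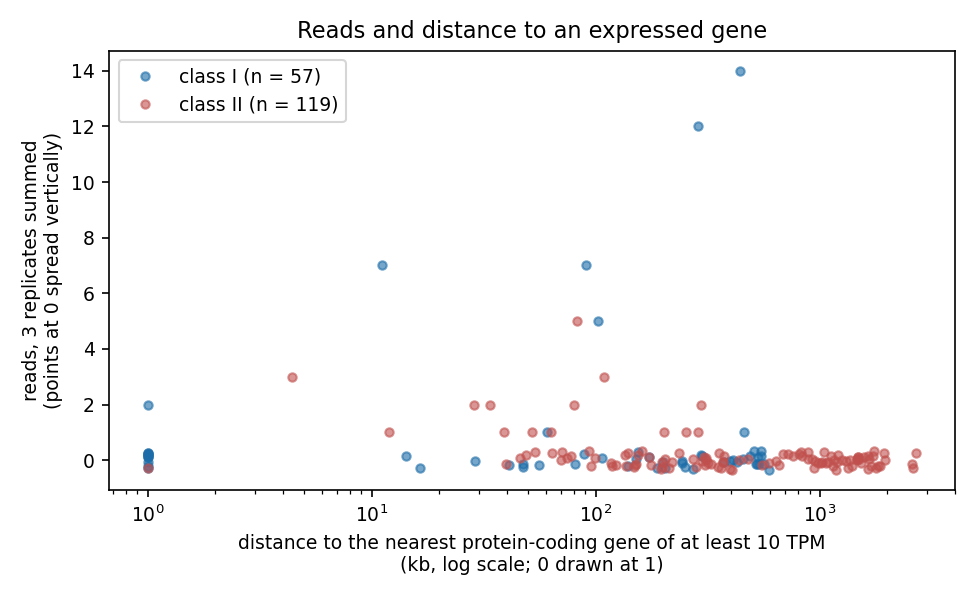
Reads summed over the 3 H9 replicates (vertical axis) against the distance of each receptor gene to the nearest protein-coding gene of at least 10 TPM (horizontal axis, kb, log scale), with 1 point per gene colored by receptor class. Genes at 0 reads are spread vertically and a distance of 0 is drawn at 1 kb. Genes with reads lie at 458 kb or less, and the 62 genes beyond 500 kb are all at 0.

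The zeros were also set beside properties that limit counting. Receptor genes are similar to each other, and reads that align to several genes are often discarded. Of 50-base windows in the transcripts of a receptor gene, a median of 0.199% also occurred in a transcript of another gene on either strand. At least 50% did so for only 2 genes, OR51A2 with OR51A4 at 54.0% and OR5M9 at 100%. For OR5M9 this is overlap at the same place, since its exons lie wholly within those of ENSG00000284732 on the same strand. Of the 80 genes without any shared window, 71 had no read and 9 (11.25%) had one, against 12.5% of all 176 receptor genes. The length of the RNA-seq reads is not given in the sources used here. Receptor transcripts had a median GC content of 43.0% (quartiles 39.6% and 46.2%), against 48.7% (42.1% and 56.5%) for all protein-coding genes, and the medians for genes with and without a read were 43.1% and 43.0%. Genes with a read had more annotated exonic sequence in total, with a median of 2779 bp against 1055 bp. Genes whose main transcript has 1 exon had reads on 9 of 102, and those with more exons on 13 of 74. Per kb of exon the former had 0.263 reads and the latter 0.167. Over coding length the order turned, with 29 reads over 96.7 kb for the former and 46 reads over 70.1 kb for the latter. The coding sequence of 170 genes is a single block, and its length varied little, from 906 to 1110 bp.

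Receptors elsewhere in the genome also had few reads. Of 234 protein-coding olfactory receptor genes on other chromosomes, 22 had a read (9.40%) and 5 had one in every replicate. Their density was 0.00644, 0.00791 and 0.00732 CPM per kb of exon in replicates 1, 2 and 3, against 0.00550, 0.00626 and 0.00720 for chromosome 11. The difference, chromosome 11 minus other chromosomes, was -0.000902 ± 0.000762 (SD, n = 3) and negative in 3 of 3 libraries, with p = 0.25 in a two-sided exact permutation test over libraries, the smallest p that 3 libraries allow. It turned positive, to 0.000451, without the gene with the most reads in each set. OR7D2 on chromosome 19 had 11, 22 and 11 reads (1.58 ± 0.459 TPM, SD, n = 3) and OR2A7 on chromosome 7 had 5, 13 and 8, and both together held 54.7% of the 128 reads of that set.

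The pseudogenes of receptors on chromosome 11 had reads on 19 of 191 genes (9.95%), 438 in all. Most of these lay outside the receptor stretches. OR7E12P (3390780 to 3391752) had 92, 136 and 101 reads and OR7E14P 30, 29 and 17, and both together held 92.5% of the pseudogene reads. OR7E14P shares 96.2% of its exons with other genes and OR7E12P shares none. Without the 13 pseudogenes of subfamily 7E, 12 of 178 had a read, with 18 reads in all, and of the 145 pseudogenes inside the stretches 7 had a read, with 9 reads.

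Other families of tissue-restricted genes were examined in the same way. Of the remaining 1110 protein-coding genes of chromosome 11, 86.8% had a read. Of the keratin-associated protein genes of hair (KRTAP), 13 of 94 had one, and of the β-defensin genes (DEFB) 3 of 40. The trace amine-associated receptors (TAAR) had no read on 6 genes. Of the bitter taste receptors (TAS2R) 17 of 24 had a read, with 102 reads and 2.90 reads per kb of exon, and of the pheromone receptors (VN1R) 3 of 4, mainly VN1R1 with 35 reads.

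**Figure D4:**
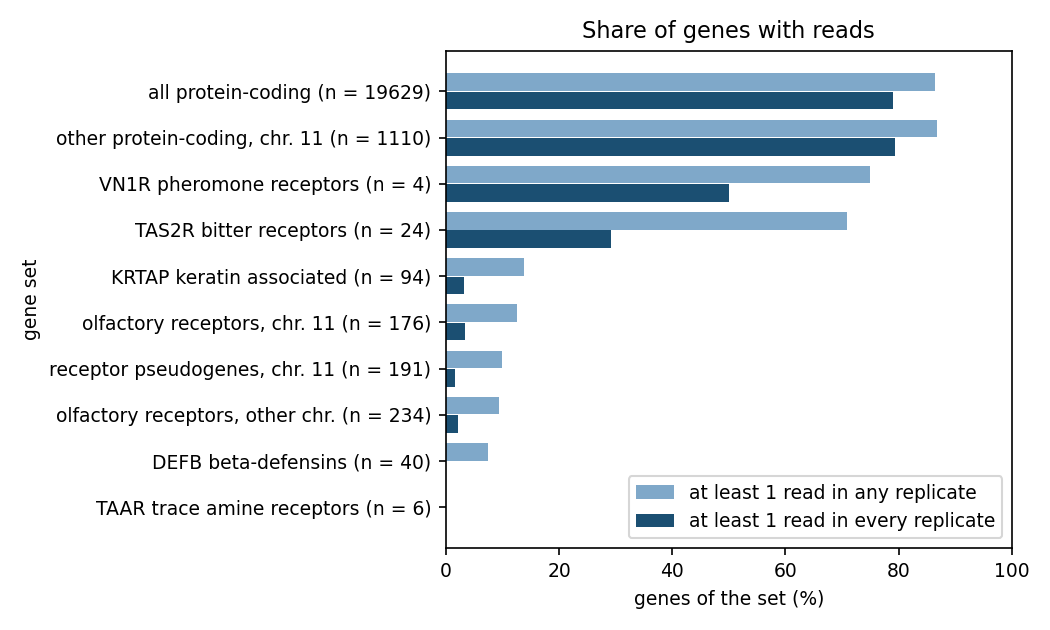
Share of genes (horizontal axis, %) with at least 1 read in any H9 replicate (light bars) and in every replicate (dark bars), by gene set, with the number of genes in parentheses. Chromosome 11 olfactory receptors are at 12.5% and 3.41%, against 86.5% and 79.1% of all protein-coding genes.

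Genes that act with olfactory receptors had more reads than the receptors. Of 13 genes of signal transduction, 9 (69.2%) had a read in every replicate and 7 (53.8%) had a mean of at least 1 TPM, against 79.1% and 67.4% of all protein-coding genes. Their median was 3.40 TPM, against 7.10 TPM. GNAL, the α subunit of the olfactory G protein, had 24.2, 23.8 and 25.4 TPM, and ADCY3, the adenylyl cyclase that it activates, 51.5, 46.2 and 52.8 TPM. They share 29.1% and 24.4% of their exon length with other genes. GNB1, a β subunit used in most tissues, had 206 ± 7.18 TPM, and GNG13, the γ subunit, 10.5 ± 4.05 TPM (SD, n = 3). RIC8B, which promotes folding of the α subunit, had 14.6 ± 1.16 TPM. GNG13 and RIC8B share 19.7% and 12.2% of their exon length with other genes. The channel of the pathway was at or near 0. CNGA2, its main subunit, had no read in any library, CNGA4 had 0, 0 and 1, and CNGB1 had 0, 2 and 1. ANO2, a calcium-activated chloride channel, had 3.40 ± 0.423 TPM, and SLC24A4, an exchanger that removes calcium, 0.609 ± 0.0567 TPM (SD, n = 3). Of the phosphodiesterase genes, PDE4A had 4.41 ± 0.645 TPM and PDE1C 0.194 ± 0.157 TPM (SD, n = 3). OMP, the marker of mature olfactory neurons, had 0, 1 and 1 reads. Of the 6 markers of these neurons, 4 had a read in every replicate, and their summed level lay between 82.9 and 99.9 TPM, most of it from GNAL and ADCY3.

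Receptors need helper proteins to reach the cell surface. RTP1, the main transporting protein, had 17, 21 and 28 reads (3.93 ± 1.54 TPM, SD, n = 3), with 39.1% of its exon length shared with other genes, and was highest in replicate 3, the least deep library. REEP1 had 21, 40 and 23 reads (1.52 ± 0.372 TPM, SD, n = 3). RTP2 had no read, RTP3 had 2 and RTP4 had 1. A read in every replicate was thus found for 2 of the 5 genes, against 79.1% of all protein-coding genes.

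Of 14 genes that regulate receptor choice or receptor heterochromatin, 13 (92.9%) had a read in every replicate, against 79.1% of all protein-coding genes, and their median was 22.2 TPM, against 7.10 TPM. Many of them are broadly expressed, and those were the high ones. LDB1, the cofactor that joins distant receptor enhancers, had 97.7 ± 3.20 TPM, KDM1A, a histone demethylase needed for receptor choice, 81.8 ± 4.16 TPM, and LBR, a nuclear envelope protein that holds heterochromatin, 151 ± 4.97 TPM (SD, n = 3). The heterochromatin protein genes CBX5, CBX1 and CBX3 had means of 305, 287 and 212 TPM. ATF5, which acts in the feedback after a receptor is expressed, had 26.4 ± 3.28 TPM and LMNA, a lamin gene, 18.1 ± 1.31 TPM (SD, n = 3). ATF5 shares 22.1% of its exon length with other genes. The factors more particular to olfactory neurons were low. LHX2, a homeodomain factor at receptor enhancers, had 4, 2 and 4 reads (0.534 ± 0.239 TPM, SD, n = 3), and EMX2 had 2, 1 and 0. EBF2 was the highest of the EBF genes at 5.69 ± 0.406 TPM (SD, n = 3), and EBF1, EBF3 and EBF4 had means of 1.11, 1.05 and 1.00 TPM.

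**Figure D5:**
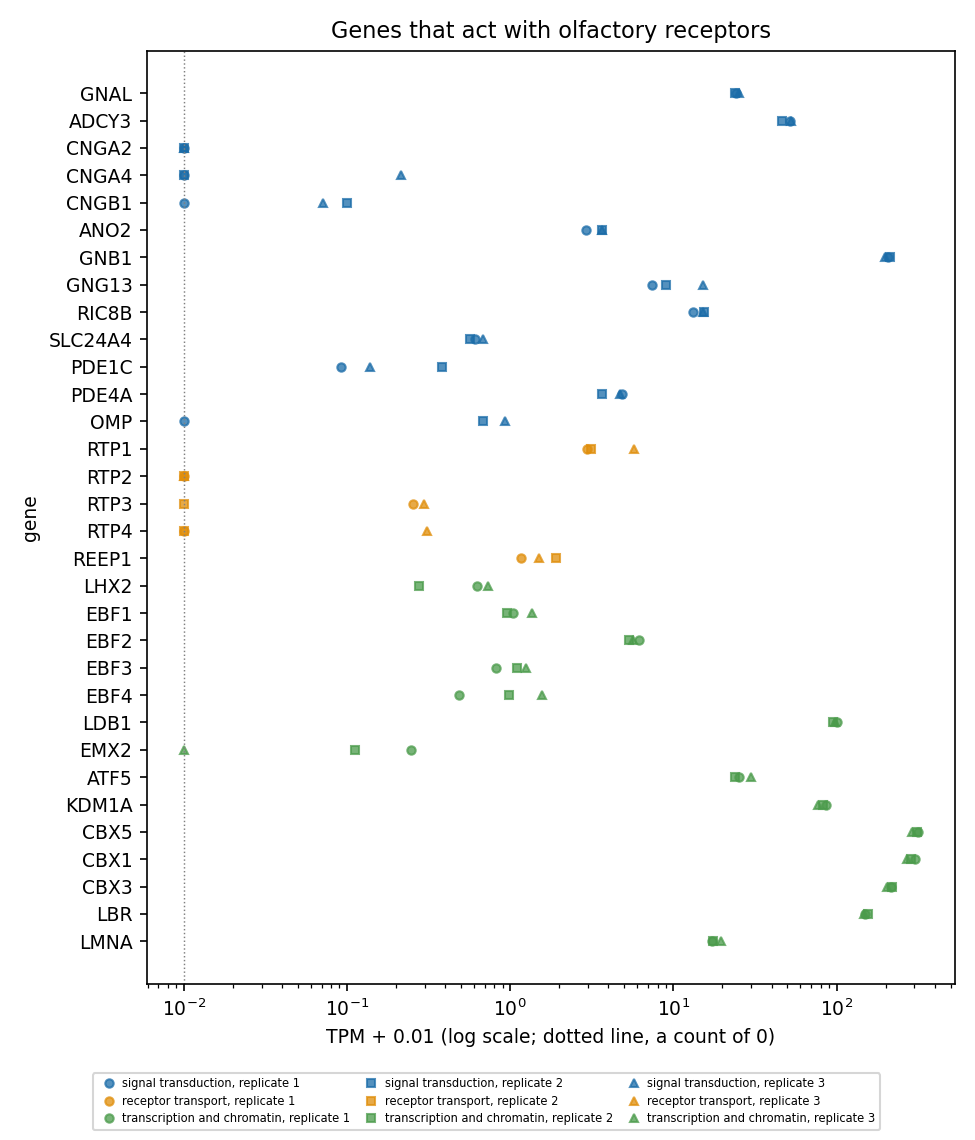
Levels (horizontal axis, TPM + 0.01, log scale) of 32 genes of olfactory signal transduction, receptor transport and receptor regulation in each H9 replicate, with 1 symbol per replicate. CNGA2 and RTP2 are at 0 in all 3, while GNAL, ADCY3, GNB1 and RIC8B lie above 10 TPM in each.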

How the data were processed

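Total RNA from 3 replicates of untreated H9 cells was sequenced after rRNA depletion. Per the labels and the methods of the study, reads were trimmed with Trim Galore 0.4.4 and aligned to GRCh38 with TopHat2 2.1.1. The deposited values are raw counts of reads per gene, without normalization. Which counter and annotation were used, and whether strand was considered, is not given in the sources used here, so exon lengths may differ from those of the counting.

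Identifiers were joined to GENCODE release 44 on the same build, and 56948 of 58051 matched. TPM was computed from the counts and the union of exons of each gene. The levels that the study computed with Cufflinks 2.2.1 were not used. Exonic overlap, distances and 50-base windows shared between transcripts came from the same release. Upstream sequences are from RefSeq. Intervals are exact Poisson at 95%, and a count of 0 was taken to allow 3 reads. TMM factors and filterByExpr are from edgeR 4.0.16 and size factors from DESeq2 1.42.0 (R 4.3.3), and the other steps used scipy 1.17.1 and pandas 2.3.3. TPM and intervals were tested on simulated counts.

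Genes named are receptors with a read in every replicate, the 12 with the most reads and ties, the highest by TPM, those that overlap other exons, neighbors of genes of at least 10 TPM, and listed genes of olfactory signaling, regulation, pluripotency and lineages. Comparison families were taken by symbol. Receptor genes with fewer reads, receptors of other chromosomes, pseudogenes, OSBP, TRIM22 and VN1R1 were named after their values were seen, as were the stretches, distances and shared windows. The genes and lists were chosen with earlier results of these data known. Alternatives were other thresholds, lengths, library sizes, exclusion of overlapping genes and leaving out each replicate.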

Additional observations from a re-analysis of the deposited data

How the results depend on the processing

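The number of receptor genes with a read, 22, lay between 17 and 20 with 1 replicate left out and was 21 without genes that share at least 10% of their exons. It was 13 when at least 2 reads were asked for, 6 with at least 4 reads, and 0 among the genes kept by edgeR's filterByExpr, as fewer genes reach a higher count. The number with a read in every replicate, 6, lay between 7 and 8 with 1 replicate left out, since only 2 libraries had to have one. It was 4 with at least 2 reads in each, 0 with at least 4 reads, 0 after filterByExpr, and 3 for the pseudogenes in place of the receptor genes. The number at or above 0.01 TPM, 22, was 0 at a threshold of 1 TPM and 11 with the median of the replicates, which needs a read in 2 libraries. It lay between 17 and 20 with 1 replicate left out, and 15 genes were at or above 0.1 TPM. The summed level of 2.43 CPM was 1.99 without OR52A1, and 2.26 to 2.59 with 1 replicate left out. TMM and DESeq2 scaling moved it by less than its SD. The difference in density from receptors on other chromosomes, -0.000902 CPM per kb, reversed to 0.000451 without the gene with the most reads in each set, and lay between -0.00129 and -0.000531 with 1 replicate left out. No test of it could pass the threshold. Levels of receptor genes rest on 75 reads in all, so depth limits every value for a single gene. No paired analysis was possible because all 3 libraries are of 1 condition.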
